A study of Homo sapiens with 6 samples.

Results

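The BCL2 family, the caspases and the death receptors, together with their ligands, adaptors and inhibitors, were examined as a group of 40 genes in a pair of breast carcinoma cell lines. The genes were listed by name, with no threshold on their values, and of the probe sets that the annotation gives to a single gene, the brightest over the 6 arrays stood for each. This gave a value for 36 of the 40 genes, out of 11963 genes measured in all. BBC3 had only a probe set shared with another gene, and BBC3, BIRC3, TNFRSF10A and RIPK1 are not analysed here. Of the 36, 8 were classed as survival members, 24 as killer members, and 4 (BCL2L13, CASP1, CASP4 and DFFA) were left unclassed because they act on other processes or in both directions.

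Apoptosis can start at the mitochondrion, where BH3-only proteins sense damage or loss of survival signals, bind the anti-apoptotic BCL2 proteins and release BAX and BAK1 to open the outer membrane. Cytochrome c then leaves the mitochondrion and joins APAF1 and caspase-9 in the apoptosome, which activates the executioner caspases. It can also start at the cell surface, where ligands of the TNF family engage death receptors whose adaptors recruit caspase-8 or caspase-10. In breast epithelium BCL2 is a known target of the estrogen receptor, the receptor that tamoxifen binds.

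Each array held RNA from a culture of SUM44 or LCCTam, both labelled as lines from invasive lobular carcinoma that carry estrogen and progesterone receptors, grown in a Ham's F12 medium. SUM44 is labelled sensitive to tamoxifen, and its 3 cultures were exposed for 24 hours to 4-hydroxytamoxifen (4HT) at 500 nM, the form into which the drug is activated in the body. LCCTam, known as a derivative of SUM44, carries the label resistant, and 14 days without 4HT preceded the harvest of its 3 cultures. The comparison is LCCTam without the drug against SUM44 with it, so the line and the drug differ together and their effects cannot be told apart, and each state is represented by 1 line only. Values are log2 levels, differences are LCCTam minus SUM44 with the standard error of the fit, and a gene is called at an adjusted p under 0.05 in limma's moderated test over all genes. In bulk RNA of this kind, a change in the share of cells that express a gene and a change in RNA per cell cannot be told apart.

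The LCCTam arrays were less alike than the SUM44 arrays, whose correlations over all genes were 0.994 to 0.995. LCCTam replicate 1 correlated at 0.982 with LCCTam replicate 2, at 0.972 to 0.974 with the SUM44 arrays and at 0.958 with LCCTam replicate 3. Replicates 2 and 3 correlated at 0.987 with each other, and with the SUM44 arrays at 0.951 to 0.964 for replicate 2 and 0.923 to 0.941 for replicate 3. The luminal keratins KRT8, KRT18 and KRT19 were bright in both lines, with group means between 11.0 and 13.8, and all 3 were called lower in LCCTam (-1.09, -0.42 and -0.69). Of 9 luminal genes measured, 5 were called (55.6%, beside 15.8% of all genes). ESR1 (-1.40) and the keratins were lower and GATA3 was higher (1.11). PGR, the progesterone receptor of the labels, was dim in both lines, averaging 4.22 ± 0.11 (SD, n = 3) and 4.01 ± 0.15, below 5.93, the lower quartile of gene means. Of 26 measured markers of fibroblasts, endothelium, leukocytes, basal cells and adipocytes, limma called 0, beside 15.8% of all genes. At an unadjusted p under 0.05 there were 3, beside 31.4% of all genes. They were CD14, ADIPOQ and FABP4, named after their values were seen. Means of the 26 ran from 3.34 to 7.91. The summed log2 level of the 7 fibroblast markers ran from 39.8 to 40.6 in SUM44 and from 39.9 to 42.1 in LCCTam, and that of the 6 leukocyte markers from 35.1 to 36.2 and from 35.3 to 36.8. The 5 endothelial markers summed to 28.4 to 29.1 and 28.4 to 29.2, the 4 basal markers to 24.0 to 24.3 and 23.9 to 25.3, and the 4 adipocyte markers to 21.1 to 21.7 and 21.7 to 22.4. Their part in the results was not tested.

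Of the 36 members, 7 were called (19.4%), beside 15.8% of all genes. Higher in LCCTam were 6 of them (16.7%, beside 9.18% of all genes), the pore former BAX, the BH3-only protein BIK, the mitochondrial BCL2-like protein BCL2L13, the initiator caspase CASP9, the receptor adaptor TRADD and the nuclease DFFB. Lower was 1 (2.78%, beside 6.60%), the survival protein BCL2L2. For 14 members (38.9%) the 3 arrays of one group lay wholly to one side of the other group's, beside 35.4% of all genes; LCCTam was the higher group for 10 (27.8%, beside 21.8%) and the lower group for 4 (11.1%, beside 13.5%). All the calls were differences of under 2-fold, a size that 4.89% of all genes passed with a call. At an unadjusted p under 0.05 there were 17 members (47.2%), beside 31.4% of all genes. After cyclic loess normalisation 7 members were again called, but 4 were higher and 3 lower: BAX, BIK, DFFB and TRADD higher, and BCL2L2, BCL2L11 and CFLAR lower. Of all genes, 6.93% were then higher and 6.80% lower (13.7% called), so the balance of calls also moved toward lower ones over all genes.

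**Figure D1:**
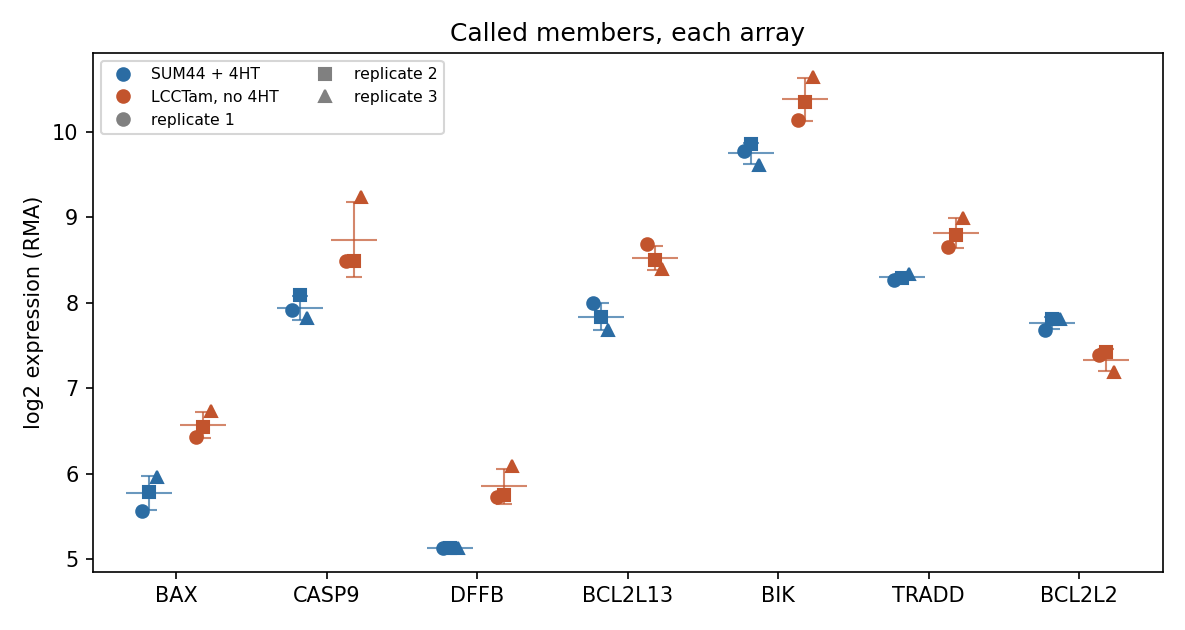
log2 expression level (vertical axis) of the 7 called members in each of the 6 arrays, SUM44 with 4HT in blue and LCCTam without 4HT in orange, with the mean as a horizontal line and the SD (n = 3) as a vertical bar. For each of the 7 the groups do not overlap, and BCL2L2 is the one with LCCTam below SUM44.

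The number of calls changed with each array left out, among the members and over all genes. Such a fit has fewer arrays, so a lost call does not show that it rested on the array left out. Without LCCTam replicate 1, 18 members were called, 12 higher and 6 lower, beside 35.5% of all genes in the same fit. Of the 11963 genes, that fit called 2237 higher and 2004 lower. Without SUM44 replicate 1, 3 were called (beside 6.73% of all genes). Without SUM44 replicate 2, SUM44 replicate 3 or LCCTam replicate 2, 2 were called (beside 7.22%, 6.28% and 6.33%), and without LCCTam replicate 3, 6 were called (beside 14.8%). BAX and DFFB were called in each of these 6 fits. They were also the 2 members (5.56%) with an adjusted p under 0.01, beside 6.04% of all genes.

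Among the pore formers, BAX carried the clearest difference. BAX inserts into the outer mitochondrial membrane and lets cytochrome c out. It stood at 5.56, 5.79 and 5.96 in SUM44 replicates 1 to 3 and at 6.43, 6.55 and 6.73 in LCCTam. The lowest LCCTam array thus lay above the highest SUM44 array. The difference was 0.80 ± 0.14, or 1.74-fold higher in LCCTam (adjusted p = 0.0094, limma). Over the 14 alternatives that held BAX the adjusted p ran from 0.00183 to 0.0476. The filter on means above the median of gene means left BAX out. The filter on a level of 6 in all arrays of a group kept it through LCCTam alone. The second BAX probe set stood at 5.44, 5.78 and 6.01 in SUM44 and at 6.20, 6.40 and 7.07 in LCCTam, a difference of 0.81 ± 0.25 that was not called among all probe sets (adjusted p = 0.0711). Both BAX probe sets carry a suffix for sequence shared between transcripts, and the brightest lay below 5.93 in SUM44 replicates 1 and 2, in the range of dim signals, so its fold is not exact.

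BAK1, the other main pore former, stood at 7.22, 7.25 and 7.25 in SUM44 and at 7.30, 7.65 and 7.82 in LCCTam. Its groups did not overlap, but LCCTam replicate 1 lay close to SUM44 and the difference of 0.36 ± 0.14 was not called (adjusted p = 0.138). Without LCCTam replicate 1 it was 0.50 (adjusted p = 0.00839), and over the alternatives it was called in that 1 only. BOK, a less studied pore former, overlapped between the groups (0.15 ± 0.16).

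The promoters of BAX and DFFA, 2 members with non-overlapping higher levels in LCCTam, are shown because they hold more than 1 copy of the E-box CACGTG, the element bound by basic helix-loop-helix leucine zipper factors. The sequences are the 250 bases before the transcription start in RefSeq on build GRCh38.p14, 5′ to 3′ on the strand of the gene, with the E-boxes in capitals. BAX lies at chr19:48954625-48954874 on the plus strand and DFFA at chr1:10472530-10472779 on the minus strand.
BAX: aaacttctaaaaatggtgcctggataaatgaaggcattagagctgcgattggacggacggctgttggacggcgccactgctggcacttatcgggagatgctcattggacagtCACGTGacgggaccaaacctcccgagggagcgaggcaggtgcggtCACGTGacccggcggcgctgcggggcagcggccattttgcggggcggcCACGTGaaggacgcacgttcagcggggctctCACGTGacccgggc
DFFA: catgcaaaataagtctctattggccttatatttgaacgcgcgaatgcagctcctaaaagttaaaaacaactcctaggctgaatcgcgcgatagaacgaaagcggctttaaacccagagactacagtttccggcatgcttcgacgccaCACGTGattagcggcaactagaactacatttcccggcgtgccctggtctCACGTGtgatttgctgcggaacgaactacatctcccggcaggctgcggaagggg
The BAX E-boxes begin 138, 93, 45 and 14 bases before the start, and the DFFA E-boxes 103 and 54 bases before it. Searched on both strands, at least 1 E-box was found in 6.34% of the 35116 RefSeq promoter windows of this length, and 4 or more were found in 5 of them. Entries were found for 28 of the 36 measured members, and 3 of the 28 held an E-box, the third being BID. These 28 members have 51 windows, of which 4 (7.84%) held one. A match is a description of the letters and not a binding site, and no factor binding was measured.

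The anti-apoptotic BCL2 proteins hold BAX, BAK1 and the BH3-only proteins in check. Of the 5 measured, 1 was called, beside 15.8% of all genes. Below 0 were 4 of the 5 differences, while 63.0% of all genes had a difference above 0. One of the 4, that of the dim BCL2A1, was -0.01 and so close to 0. BCL2L2, also known as BCL-w, stood at 7.68, 7.80 and 7.80 in SUM44 and at 7.39, 7.42 and 7.19 in LCCTam. Every LCCTam array lay below every SUM44 array, and the level fell by 0.43 ± 0.11 on the log2 scale, 1.35-fold (adjusted p = 0.0354, limma). Dropping SUM44 replicate 1 ended the call (adjusted p = 0.0944), as did dropping SUM44 replicate 2 (0.126), SUM44 replicate 3 (0.138), LCCTam replicate 2 (0.0926) or LCCTam replicate 3 (0.0572), with differences from -0.48 to -0.36. It was also lost with the replicate number as a block (0.0514).

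BCL2, the founding member of the family, stood at 7.54, 7.36 and 7.75 in SUM44 and at 7.86, 6.83 and 6.87 in LCCTam. LCCTam replicate 1 was the highest of the 6 arrays, and replicates 2 and 3 were the lowest. The difference of -0.37 ± 0.27 was not called (adjusted p = 0.406), and without LCCTam replicate 1 it was -0.70 and called (adjusted p = 0.00416). The other BCL2 probe sets gave 0.09 ± 0.11, 0.24 ± 0.20 and -0.00 ± 0.09, none of them called. ESR1, the gene of the estrogen receptor, was lower in LCCTam (-1.40 ± 0.25, adjusted p = 0.0109).

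MCL1, a short-lived protein that restrains BAK1, stood at 9.57, 9.43 and 9.46 in SUM44 and at 9.44, 9.02 and 8.70 in LCCTam. Again replicates 2 and 3 lay below SUM44 while replicate 1 lay within its range. The difference was -0.43 ± 0.18 (adjusted p = 0.154), and -0.63 without LCCTam replicate 1 (adjusted p = 0.00602). Its dimmer probe sets gave -0.70, -0.62, -0.21 and 0.07, none of them called.

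BCL2L1 was the survival member whose levels lay the other way. It encodes BCL-XL and, by alternative splicing, the pro-apoptotic BCL-XS, which the array values used here do not separate. It stood at 8.06, 8.00 and 8.11 in SUM44 and at 8.24, 8.61 and 8.39 in LCCTam, without overlap. The brightest probe set gave 0.36 ± 0.12 and was not called (adjusted p = 0.0906), while a dimmer one gave 0.69 ± 0.12 and was called among all probe sets (adjusted p = 0.0106). With the mean of its 3 probe sets BCL2L1 was called (0.52, adjusted p = 0.0365), and it was also called without LCCTam replicate 1 (0.45, adjusted p = 0.0182). BCL2A1 was dim and gave -0.01 ± 0.12.

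The BH3-only proteins are the triggers of the pathway, and 1 of the 6 measured was called (16.7%, beside 15.8% of all genes). BIK, which acts at the endoplasmic reticulum, stood at 9.77, 9.86 and 9.62 in SUM44 and at 10.14, 10.35 and 10.65 in LCCTam. The groups did not overlap, and BIK was 1.55-fold higher in LCCTam (0.63 ± 0.15, adjusted p = 0.0289, limma). Dropping SUM44 replicate 1 ended the call (adjusted p = 0.0993), as did dropping SUM44 replicate 2 (0.0736), SUM44 replicate 3 (0.122) or LCCTam replicate 2 (0.102), with differences of 0.57 to 0.69.

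BCL2L11 encodes BIM, a BH3-only protein under the control of FOXO3, and its levels lay in the opposite direction to BIK. It stood at 6.12, 6.25 and 6.44 in SUM44 and at 5.84, 5.97 and 6.01 in LCCTam. The groups did not overlap, but the difference of -0.32 ± 0.12 was not called (adjusted p = 0.111). After cyclic loess it was called (-0.40, adjusted p = 0.0441). FOXO3 itself was lower in LCCTam (-0.87 ± 0.19, adjusted p = 0.0223).

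The remaining BH3-only genes were not called. BAD, which is held inactive by phosphorylation, stood at 7.79, 7.65 and 7.57 in SUM44 and at 7.58, 7.99 and 8.46 in LCCTam (0.34 ± 0.21), with replicate 1 inside the SUM44 range and the other two LCCTam arrays above it. Without LCCTam replicate 1 it was called (0.55, adjusted p = 0.0228). BID, which caspase-8 cleaves to link the receptor route to mitochondria, gave 0.18 ± 0.14. PMAIP1, also known as NOXA, was dim and gave -0.01 ± 0.18. HRK gave 0.11 ± 0.17 on its brightest probe set, while its dimmest gave 0.48 ± 0.11 and was called among all probe sets (adjusted p = 0.0304, limma). That dimmest probe set averaged 5.56 in SUM44, below 5.93, in the range of dim signals.

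BCL2L13 has BCL2 homology domains, sits in the outer mitochondrial membrane and is known as a receptor for the removal of mitochondria. It stood at 8.00, 7.84 and 7.68 in SUM44 and at 8.68, 8.50 and 8.40 in LCCTam. The groups did not overlap, and it was 1.61-fold higher in LCCTam (0.69 ± 0.13, adjusted p = 0.0125, limma). LCCTam replicate 1 was its highest array, unlike the other called members. The call was lost after cyclic loess (0.54, adjusted p = 0.0565), without SUM44 replicate 2 (0.0556), without SUM44 replicate 3 (0.0632) and without LCCTam replicate 2 (0.0578).

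Among the 5 initiator and executioner caspases measured, CASP9 was the call. It encodes the initiator of the apoptosome, and stood at 7.91, 8.10 and 7.82 in SUM44 and at 8.48, 8.49 and 9.24 in LCCTam. LCCTam replicate 3 lay well above replicates 1 and 2, which themselves lay above all SUM44 arrays. CASP9 was 1.74-fold higher (0.80 ± 0.21, adjusted p = 0.044, limma), and its second probe set gave 0.60 ± 0.12 (adjusted p = 0.0182). The call on the brightest probe set was lost after cyclic loess (0.65, adjusted p = 0.0705), with the replicate number as a block (0.0538), and without SUM44 replicate 1 (0.144), SUM44 replicate 2 (0.0936), SUM44 replicate 3 (0.157) or LCCTam replicate 2 (0.078).

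The CASP9 promoter is shown for its GC boxes, GGGCGG, the element bound by SP1-like factors, of which it holds 8 on the strand shown, counted with overlap and set in capitals. It is the window of the outermost transcription start, at chr1:15524791-15525040 on the minus strand of GRCh38.p14, from RefSeq.
CASP9: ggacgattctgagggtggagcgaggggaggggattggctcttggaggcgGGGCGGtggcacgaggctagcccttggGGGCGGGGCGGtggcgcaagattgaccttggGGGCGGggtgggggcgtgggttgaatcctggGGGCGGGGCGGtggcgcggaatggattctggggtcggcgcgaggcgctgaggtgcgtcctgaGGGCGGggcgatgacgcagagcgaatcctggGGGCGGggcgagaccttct
A GC box on either strand was found in 33 of the 51 member windows (64.7%), beside 42.6% of all promoter windows. In 2680 of the 35116 promoter windows there were 4 or more. Windows of the members BID, CASP2 and PMAIP1 held 4.

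The other caspases were not called. CASP2, an initiator linked to DNA damage, gave 0.28 ± 0.14 (adjusted p = 0.222) and was called without LCCTam replicate 1 (0.41, adjusted p = 0.0284). CASP10 gave 0.21 ± 0.13. CASP8, the initiator of the receptor route, gave -0.11 ± 0.11. CASP6, an executioner, gave 0.03 ± 0.10. The inflammatory caspases, which process cytokines and gasdermin, gave 0.16 ± 0.14 for CASP1 and -0.04 ± 0.15 for CASP4, the latter dim.

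CYCS, the gene of cytochrome c, had the lowest difference of the 36. It stood at 11.79, 11.56 and 11.84 in SUM44 and at 11.48, 10.41 and 9.42 in LCCTam. The LCCTam arrays spread over about 2 log2 units, and replicate 1 lay just below the lowest SUM44 array. The mean was 2.45-fold lower (-1.29 ± 0.45), but with this spread it was not called (adjusted p = 0.0954). Without LCCTam replicate 1 it was -1.81 and called (adjusted p = 0.000733), and over all alternatives the adjusted p ran up to 0.248. It has a single probe set of its own, so no second one could be set beside it.

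The CYCS promoter is shown for the core of the NRF-1 element, GCATGCGC, the site of a regulator of nuclear genes for mitochondrial proteins. The window lies at chr7:25125261-25125510 on the minus strand of GRCh38.p14, from RefSeq, and the core, in capitals, begins 169 bases before the start.
CYCS: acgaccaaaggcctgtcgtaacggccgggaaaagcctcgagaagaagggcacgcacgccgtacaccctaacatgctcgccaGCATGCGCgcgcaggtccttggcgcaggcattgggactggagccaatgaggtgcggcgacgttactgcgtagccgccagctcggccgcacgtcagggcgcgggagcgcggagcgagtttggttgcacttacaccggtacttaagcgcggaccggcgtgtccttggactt
The core was found on either strand in 2.63% of all promoter windows, and CYCS was the 1 member of the 28 that held it. Of the other motifs searched on both strands, the cAMP response element TGACGTCA was found in 1 of the 51 member windows, that of BIRC2 (1.96%, beside 1.65% of all windows). The TATA box TATAAA was found in 4 (7.84%, beside 10.7%), the C/EBP-ATF element TGATGNAA in 2 (3.92%, beside 3.14%) and the AP-1 element TGANTCA in 4 (7.84%, beside 6.57%). APAF1, which assembles with cytochrome c, gave -0.16 ± 0.14, and DIABLO, which leaves the mitochondrion with it and binds the IAP proteins, gave 0.20 ± 0.13.

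Among the caspase inhibitors, BIRC2 showed the same split between LCCTam arrays. BIRC2 encodes cIAP1, a ubiquitin ligase that keeps TNF receptor signalling from killing the cell. It stood at 7.33, 6.79 and 7.18 in SUM44 and at 7.12, 5.32 and 5.21 in LCCTam. Replicate 1 lay inside the SUM44 range, while replicates 2 and 3 lay below 5.93, in the range of dim signals that may be background. The mean was 2.32-fold lower (-1.22 ± 0.48, adjusted p = 0.129, not called). Without LCCTam replicate 1 the difference was -1.84 (adjusted p = 9.47e-05).

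CFLAR encodes FLIP, a caspase-8 homologue that blocks the receptor route. Its brightest probe set stood at 9.09, 9.05 and 8.91 in SUM44 and at 8.73, 8.80 and 8.73 in LCCTam. The groups did not overlap, at a difference of -0.26 ± 0.10 (adjusted p = 0.122) that was called after cyclic loess (-0.41, adjusted p = 0.0342). CFLAR has 11 probe sets, most of them able to bind several transcripts, and the differences of the other ones ran from -0.23 to 0.18, none of them called. XIAP was dim and gave 0.02 ± 0.10.

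**Figure D2:**
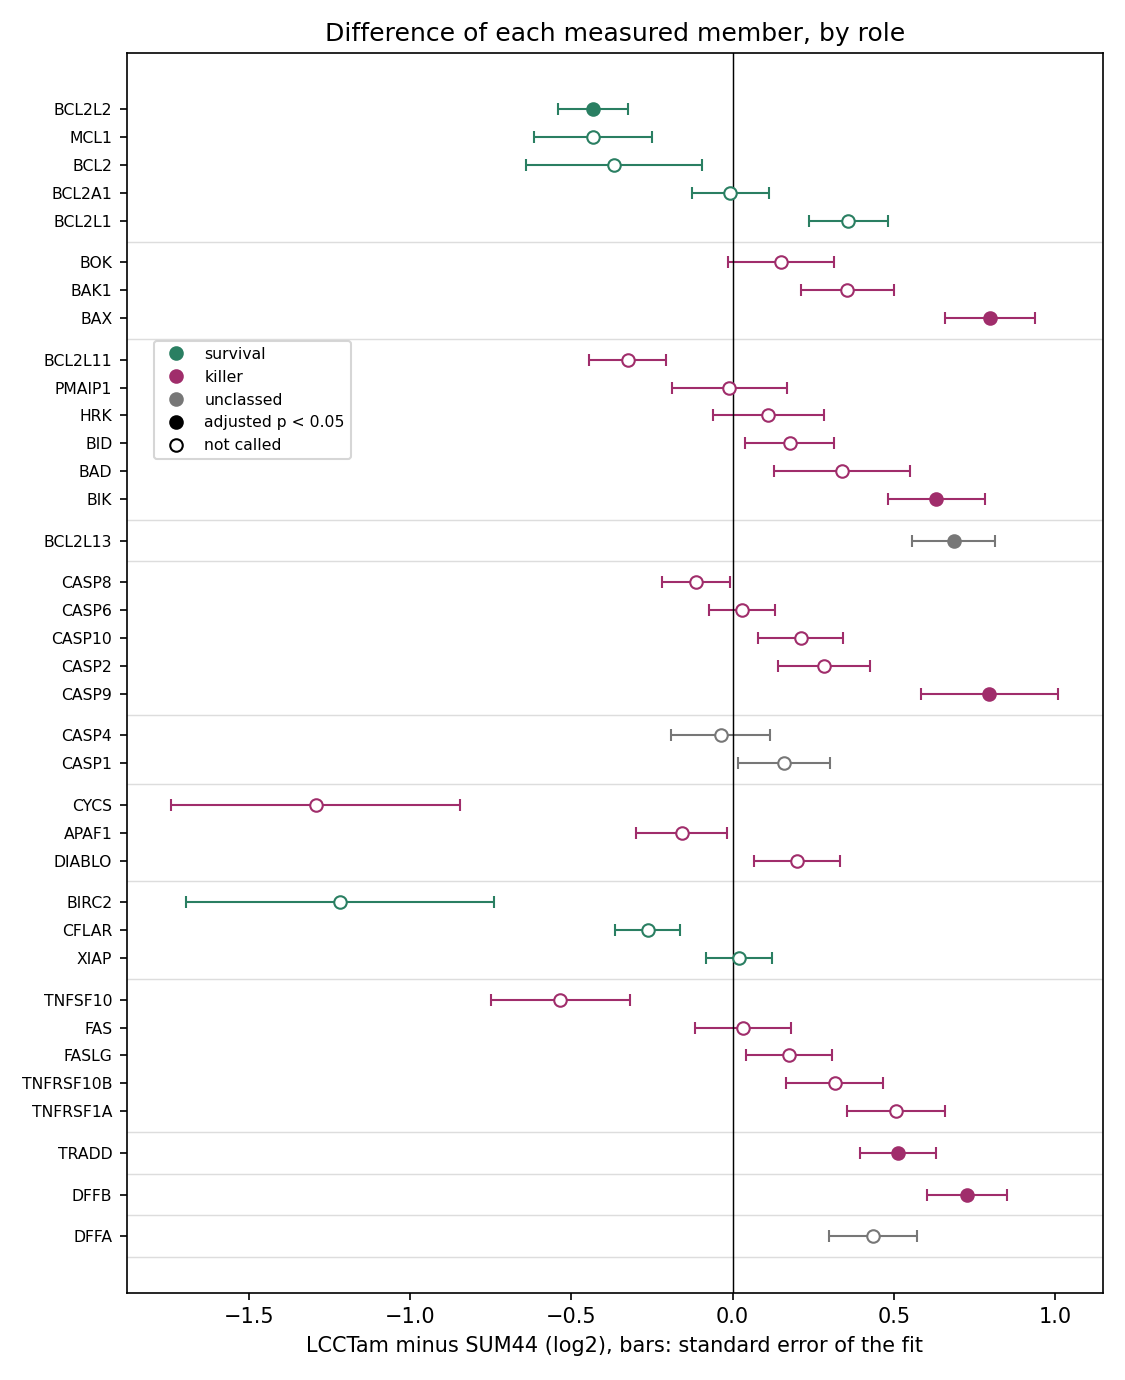
LCCTam minus SUM44 on the log2 scale (horizontal axis) for each of the 36 measured members, ordered by role, with the standard error of the fit as the bar; green marks survival members, purple killer members and grey unclassed ones, and filled points are called. CYCS and BIRC2 lie farthest from 0, with wide bars and open points, while BAX (0.80), CASP9 (0.80) and DFFB (0.73) lie highest among the filled points.

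Of the 5 death receptors and ligands measured, 0 were called by limma, beside 15.8% of all genes. At an unadjusted p under 0.05 there were 2, TNFRSF1A and TNFSF10, beside 31.4% of all genes. TNFRSF1A, the main TNF receptor, stood at 8.70, 8.81 and 8.92 in SUM44 and at 9.07, 9.28 and 9.60 in LCCTam. The groups did not overlap, and the difference of 0.51 ± 0.15 had an adjusted p of 0.0617. It was called without LCCTam replicate 1 (0.63, adjusted p = 0.00709), with the replicate number as a block (0.0324) and among the brighter genes alone (0.0458).

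TNFSF10, the ligand TRAIL, stood at 6.38, 6.30 and 6.49 in SUM44 and at 6.37, 5.68 and 5.51 in LCCTam, where replicates 2 and 3 were dim. The difference was -0.53 ± 0.21 (adjusted p = 0.137), and -0.79 without LCCTam replicate 1 (adjusted p = 0.00115). The dimmer TNFSF10 probe sets gave -0.10 and -0.11, neither of them called. With the mean of its 3 probe sets TNFSF10 was at -0.25 (adjusted p = 0.307). TNFRSF10B, the TRAIL receptor DR5, gave 0.32 ± 0.15 (adjusted p = 0.201) on its brightest probe set and 0.04 and 0.00 on the others. FAS and its ligand FASLG gave 0.03 ± 0.15 and 0.18 ± 0.13.

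TRADD, the adaptor that binds TNFRSF1A inside the cell, was called. It stood at 8.27, 8.29 and 8.34 in SUM44 and at 8.65, 8.79 and 9.00 in LCCTam. The SUM44 arrays lay within 0.1 of each other and all LCCTam arrays lay above them. TRADD was 1.43-fold higher (0.51 ± 0.12, adjusted p = 0.0258, limma), and of its dimmer probe sets 1 gave 0.65 (adjusted p = 0.0235) and the other gave 0.28 (adjusted p = 0.256). Again it ended when SUM44 replicate 1 was dropped (adjusted p = 0.106), or SUM44 replicate 2 (0.0932), SUM44 replicate 3 (0.0924) or LCCTam replicate 2 (0.097), with differences of 0.50 to 0.53.

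The nuclease DFFB, also known as CAD, cuts DNA between nucleosomes once caspases remove its inhibitor DFFA. DFFB stood at 5.13 in all 3 SUM44 arrays and at 5.72, 5.75 and 6.09 in LCCTam. All LCCTam arrays lay above SUM44, at 0.73 ± 0.12 or 1.65-fold (adjusted p = 0.0089, limma). Over the 13 alternatives that held DFFB the adjusted p lay between 0.00172 and 0.0485. Both filters on signal level left DFFB out, so it was not tested in them. The SUM44 arrays and 2 of the LCCTam arrays lay below 5.93, so the fold of this dim gene is not exact. DFFA, which is both the chaperone and the inhibitor of DFFB, stood at 8.22, 8.29 and 8.28 in SUM44 and at 8.46, 8.68 and 8.95 in LCCTam. Its groups did not overlap, and its difference of 0.44 ± 0.14 was not called (adjusted p = 0.0719) except without LCCTam replicate 1 (0.55, adjusted p = 0.00786).

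Set side by side, the survival members had 1 call of 8, lower, and a median difference of -0.32, with 2 differences above 0 and 6 below. The killer members had 5 calls of 24, all higher, and a median of 0.19, with 18 above 0 and 6 below. The 4 unclassed members had 1 call, higher, and a median of 0.30. Of all genes, 15.8% were called, 63.0% had a difference above 0 and the median was 0.08. In LCCTam replicates 1, 2 and 3, each set against the SUM44 mean, the survival median was -0.01, -0.28 and -0.43, the killer median 0.02, 0.18 and 0.41, and the median of all genes -0.01, 0.09 and 0.16. Both medians thus lay near 0 in replicate 1 and apart in replicates 2 and 3. Members share their arrays, so these medians are descriptions without a test. The survival median depended on the choice of probe set. It was -0.03 over every probe set and -0.07 with the mean of each gene's probe sets, and the killer median was then 0.11 and 0.18. CFLAR alone supplied 11 of the survival probe sets. With probe sets free of the shared-sequence suffix, where a gene had one, the survival median was -0.11 and the killer median 0.23. After cyclic loess, which brought the median of all genes to 0.00, the survival median was -0.45 and the killer median 0.10.

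**Figure D3:**
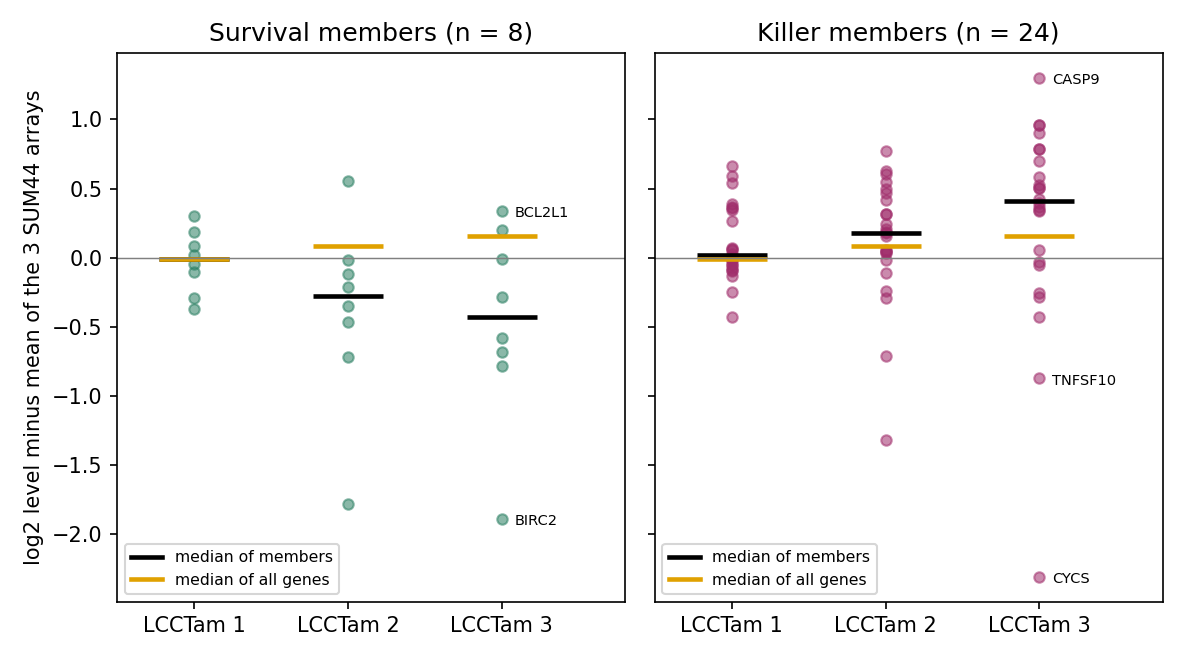
log2 level in each LCCTam array minus the mean of the 3 SUM44 arrays (vertical axis) for the 8 survival members (left) and the 24 killer members (right), with black lines for the median of the members and yellow lines for the median of all genes. In replicate 1 the medians are -0.01 and 0.02, and in replicate 3 they are -0.43 and 0.41.

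For 10 members (27.8%) LCCTam replicates 2 and 3 lay beyond all SUM44 arrays on the same side while replicate 1 did not, beside 28.0% of all genes. They were BID, BAD, CASP2, CASP10, DIABLO and FASLG above SUM44, and BCL2, MCL1, BIRC2 and TNFSF10 below. The SD was larger in LCCTam than in SUM44 for 28 of the 36 members (77.8%), beside 75.4% of all genes. Its median over the members was 0.11 in SUM44 and 0.24 in LCCTam, beside 0.11 and 0.19 over all genes. The members called without replicate 1 alone or nearly so reached, over all alternatives, a highest adjusted p of 0.956 (BCL2), 0.707 (BAD), 0.468 (CASP2), 0.373 (MCL1), 0.359 (TNFSF10), 0.356 (BIRC2), 0.340 (BAK1), 0.286 (BCL2L1), 0.248 (CYCS), 0.222 (DFFA) and 0.214 (TNFRSF1A). Without LCCTam replicate 1, the LCCTam array nearest SUM44, the share of all genes called rose from 15.8% to 35.5%. The calls gained in that fit were thus not confined to the members. Correlation with the SUM44 arrays fell from LCCTam replicate 1 to replicate 3, and why the LCCTam cultures differed was not tested.

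The members were represented by 90 probe sets, and 24 of the 36 had more than 1. Of 54 dimmer probe sets, 43 had the sign of the brightest one, and 4 were called, beside 13.8% of all probe sets. The share of dimmer probe sets with the sign of the brightest one was not computed for other genes. The called members BAX, CASP9 and TRADD had 4 dimmer probe sets between them, all 4 with the same sign as the brightest and 2 of them called. BIK, BCL2L13, BCL2L2 and DFFB rest on a single probe set each. With every probe set as its own unit 11 of the 90 were called, beside 13.8% of all probe sets.

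**Figure D4:**
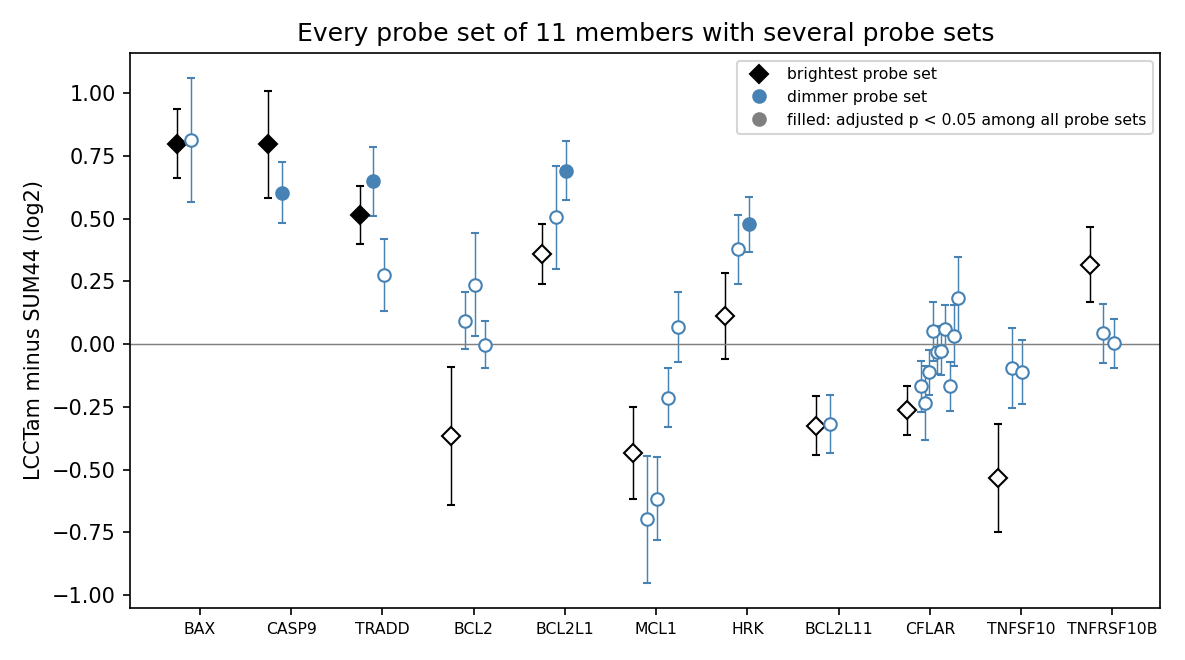
LCCTam minus SUM44 on the log2 scale (vertical axis) for every probe set of 11 members that have several, black diamonds for the brightest and blue circles for the dimmer ones, with the standard error as the bar and filled symbols where the adjusted p among all probe sets is under 0.05. BAX, CASP9 and TRADD lie above 0 on every probe set, while BCL2, MCL1 and CFLAR have probe sets on both sides of 0.

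The genes beside the members on the chromosome were read as well, as the median difference of up to 10 measured genes on each side in RefSeq order. All 6 members called higher had neighbours with a median above the 0.08 of all genes, as did 15 of the 36 measured members. How often other genes have such a neighbour median was not computed. BCL2L2, the member called lower, had a neighbour median of -0.06. Of all genes, 21.8% lay wholly above SUM44, 9.18% were called higher and 13.5% lay wholly below SUM44. Around BAX, on chromosome 19 between NUCB1 and FTL, the median was 0.40, and 11 of 20 neighbours had LCCTam arrays wholly above SUM44, 7 of them called. BCL2L13 and BID are adjacent measured genes on chromosome 22, with neighbour medians of 0.31 and 0.33. TRADD, on chromosome 16, had 0.31, DFFB 0.21, BIK 0.19 and CASP9 0.17. CFLAR, CASP10 and CASP8 follow each other on chromosome 2 and share most of their neighbours, with a median of -0.22, and 9 of 20 neighbours lay wholly lower. CYCS and BIRC2, in contrast, had neighbour medians of 0.01 and 0.03. Neighbours can include other members, and copy number was not measured.

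**Figure D5:**
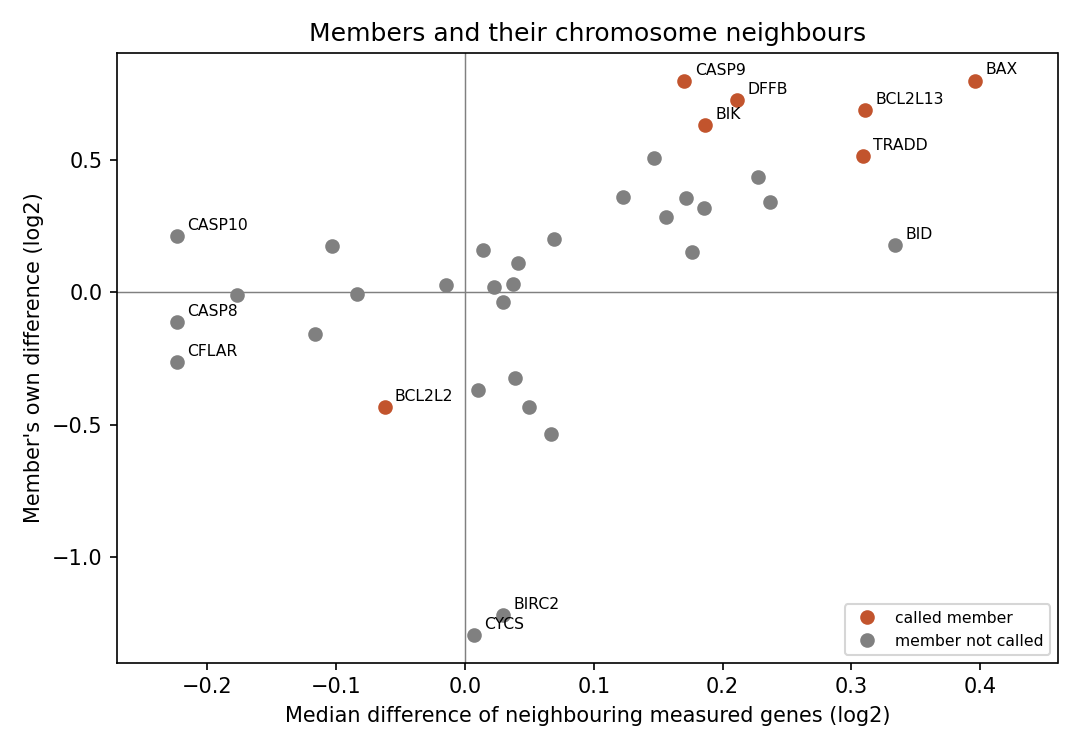
Difference of each measured member (vertical axis, log2) against the median difference of up to 10 measured genes on each side of it (horizontal axis, log2), with the 7 called members in orange. BAX lies at the right edge with a neighbour median of 0.40, and CYCS and BIRC2 lie far below 0 with neighbour medians of 0.01 and 0.03.

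Other genes of cell death gave a similar share of calls. Of 46 measured, 8 were called (17.4%, beside 15.8% of all genes), 6 higher and 2 lower, with a median of 0.10. BIRC5, the IAP protein survivin that also serves in cell division, was 2.24-fold higher (1.16 ± 0.13, adjusted p = 0.00156). TNFRSF21, the death receptor DR6, was 1.73-fold higher (0.79 ± 0.13), PEA15, which binds FADD, 1.63-fold (0.71 ± 0.16) and the adaptor DAXX 1.58-fold (0.66 ± 0.12). Lower were BAG4, which silences TNF receptor signalling (-0.47 ± 0.12), and AIFM1, a mitochondrial flavoprotein (-0.46 ± 0.11), both named after their values were seen. FADD, the adaptor of FAS, gave 0.18 ± 0.16 and was not called.

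Of 12 measured genes that regulate members, 5 were called (41.7%, beside 15.8% of all genes), 4 higher and 1 lower, with a median of 0.23. ATF4, the transcription factor of the integrated stress response, stood at 10.58, 10.89 and 10.87 in SUM44 and at 12.45, 12.42 and 12.64 in LCCTam, 3.30-fold higher (1.72 ± 0.13, adjusted p = 0.000229). LCCTam replicate 1 lay between the other LCCTam arrays here. DDIT3, the factor CHOP that ATF4 induces, was 1.85-fold higher (0.88 ± 0.13, adjusted p = 0.00462), and JUN was 1.41-fold higher (0.49 ± 0.12). The lower one was FOXO3. TNFRSF10B, a known target of DDIT3, and BCL2L11, a known target of both DDIT3 and FOXO3, were not called, at 0.32 and -0.32.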

How the data were processed

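RNA of 6 cultures was measured on 6 Affymetrix arrays. The deposited values are log2 levels from RMA, run by the authors, per the series' design text and processing notes of the submitters (background correction, quantile normalisation and probe set summary); its version is not given in the sources used here. After quantile normalisation a change in total RNA per cell cannot be seen. Precision is limited by the number of arrays, 3 per group. No detection calls were used, so dim signals could not be told from background.

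Sample titles gave the groups and name the arrays as biological replicates, without saying how cultures were separated, so the p-values reflect only the spread between these samples. Of 22283 probe sets, 19065 named 1 gene, 1043 several and 2107 none, and 68 were controls. Of the 19065, 19053 took the current symbol of their gene ID in RefSeq (GRCh38.p14), whether or not it had changed, and 12 kept the annotated symbol. The groups were tested in R 4.3.3 with limma 3.58.1 (lmFit, eBayes), two-sided, with Benjamini-Hochberg adjustment over 11963 genes (4 residual and 3.51 prior degrees of freedom), after the fit was checked on simulated data. Adjusted p-values of further probe sets come from a fit of all 19065.

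The members and lists were chosen with earlier results of these data known. Any measured member could be named; in other lists, up to 4 called genes with the largest differences, and a few genes fixed by name, of which FADD and BIRC5 are given. The other ones, and a further gene list, are not reported here. Alternatives changed the probe set choice, variance model, normalisation, filters, threshold, replicate block and each array. Promoters were searched for 7 motifs on both strands.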

Additional observations from a re-analysis of the deposited data

How the results depend on the processing

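The limits are 3 arrays per group, the spread between LCCTam arrays and dim signals. Signal over background could not be read without detection calls, and BCL2A1, PMAIP1, CASP4, XIAP, FAS and DFFB had means below 5.93. At an adjusted p under 0.01, 723 genes and 2 members were called, and with every probe set as its own unit 11 member probe sets were called. With each array left out in turn, between 751 and 4241 genes and between 2 and 18 members were called. The survival median was -0.029 over every probe set, -0.073 with the mean of probe sets and -0.11 with probe sets free of the shared-sequence suffix. Correlations of deviations were 0.49, 0.35 and -0.05 between arrays of the same replicate number, and from -0.60 to 0.49 between different numbers. With 3 arrays per group these values cannot decide whether the numbers pair the arrays. The fit with the replicate number as a block called 2152 genes and 6 members, gaining TNFRSF1A and losing BCL2L2 and CASP9.

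Of 552 member values over the alternatives, 483 kept direction and side of the threshold, 29 lost a call, 16 gained one and 24 changed sign. The variance model, threshold, replicate block and filters left the difference itself unchanged, so its sign could not change there. The same holds for every probe set as its own unit, which was read at the brightest one. The sign changes were in 10 members, with 0 of them called either way, and their cause was not tested. With the mean of probe sets XIAP was at -0.086. With probe sets free of the shared-sequence suffix CASP1 was at -0.076, CASP4 at 0.029 and CFLAR at 0.034. After cyclic loess XIAP was at -0.022, CASP6 at -0.12 and FAS at -0.027. With each array left out in turn, differences ran from -0.11 to 0.049 for BCL2A1, from -0.025 to 0.27 for BOK, from -0.20 to 0.13 for PMAIP1, from -0.045 to 0.23 for HRK, from -0.010 to 0.095 for CASP6, from -0.18 to 0.11 for CASP4, from -0.030 to 0.079 for XIAP and from -0.090 to 0.16 for FAS.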
